A study of Mus musculus with 3 samples.

Results

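The T cell receptor alpha, gamma and delta loci were read in RNA from mouse spleen T cells, as 106 listed genes of 17796 in the deposited table. The 106 were every row with a T cell receptor biotype that does not belong to the beta locus. They comprised 94 alpha V segments, 4 delta V segments, 3 gamma V segments, the alpha constant gene Trac, the delta constant gene Trdc and 3 gamma constant genes, Trgc1, Trgc2 and Trgc4. Of the alpha V segments 2, Trav13-3 and Trav8-2, carry a pseudogene biotype. J and D segments are not analysed here.

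The first library came from aged C57BL/6 mice that received fumarate, a metabolite of the tricarboxylic acid cycle, at 10 mg/kg on 3 occasions a week for 2 months. The second came from aged C57BL/6 mice given vehicle, and the third from young C57BL/6 mice of 2 months, also labelled as vehicle. The aged mice were stated to be 24 months old. All 3 groups of T cells were then cultured for 3 days on plate-bound antibodies against CD3 (2 ug/ml) and CD28 (5 ug/ml) with interleukin 2 (100 IU/ml), so every library describes activated cells, with no resting library beside it. Each group had 1 library and the number of mice behind it is not given, so the values carry no replicate error and no p-value, and spread between animals is unknown.

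Levels are given as CPM, read counts scaled so that each library sums to 1000000, and the estimated depth was 13.9 M reads for aged fumarate, 17.3 M for aged vehicle and 41.0 M for young. One read was therefore worth 0.0722, 0.0579 and 0.0244 CPM, and the floor of 3 reads used for a listed 0 was worth 0.217, 0.174 and 0.0732 CPM, in aged fumarate, aged vehicle and young. Differences in level are log2 ratios of CPM + 1, with the limit set at 2-fold. Where a plain CPM ratio or a ratio of shares is given, its 95% Clopper-Pearson interval follows, and such intervals and the 3-read limits cover counting error only. All T cell markers of a list of 14 were listed, with summed levels of 4575 CPM in aged fumarate, 3757 CPM in aged vehicle and 4087 CPM in young. Markers of several other blood lineages stood apart in the aged vehicle library. The 7 erythroid and platelet markers summed to 127, 1153 and 8.87 CPM, and the 5 basophil and mast cell markers to 59.0, 327 and 0.439 CPM, in aged fumarate, aged vehicle and young. The 5 macrophage and monocyte markers summed to 2.53, 26.7 and 0.342 CPM, with Csf1r at 0 in aged fumarate and young, and the 6 B cell markers to 60.4, 222 and 140.0 CPM. The sum of the NK cell markers, of which 3 of 4 were listed, did not follow this. It was 48.4 CPM in aged fumarate, 31.8 CPM in aged vehicle and 29.9 CPM in young. Most of that sum was 1 gene, Eomes, at 47.4, 26.9 and 29.7 CPM in the same order. Another of the 3 markers did follow it, being at least 2-fold higher in aged vehicle than in either other library. The part of these lineages in the results below was not tested.

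A T cell receptor is a pair of chains, either alpha with beta or gamma with delta, held at the cell surface with the CD3 proteins. Each chain is assembled in the developing T cell by joining a V segment to a J segment (with a D segment in the beta and delta chains), and the joined exon is spliced to a constant gene. A productive rearrangement is inherited by all progeny of a cell, so the V segments read in a population reflect which clones it contains and how much receptor RNA each makes. The delta genes lie inside the alpha locus and are removed when alpha rearranges. In the mouse gamma locus each V segment joins within its own cassette, so that Trgv4 is read with Trgc1, Trgv2 with Trgc2 and Trgv1 with Trgc4. Much of the mouse alpha V array exists in repeated copies, whose names carry a d or an n (Trav16d-dv11, Trav16n, Trav16), and segments named dv can be used by delta as well as alpha chains.

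The copies set a limit on what a single segment's value means, and the stretches below are shown for that reason. Sequences are coding bases of GENCODE M21 transcripts on GRCm38 (the same assembly as mm10), 5′ to 3′ on the gene's strand, and all 106 genes matched that annotation by position. Capitals mark positions that differ within a set. The 3 Trav16 copies are given by their last 90 coding bases, at chr14:53047732-53047821, chr14:53351532-53351621 and chr14:53743616-53743705, all on the plus strand.
Trav16d-dv11: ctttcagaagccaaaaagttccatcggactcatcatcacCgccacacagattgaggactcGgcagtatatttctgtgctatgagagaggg
Trav16n: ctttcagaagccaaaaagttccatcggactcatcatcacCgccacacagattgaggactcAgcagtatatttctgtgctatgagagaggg
Trav16: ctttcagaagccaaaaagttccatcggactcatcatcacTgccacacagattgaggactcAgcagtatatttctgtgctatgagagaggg

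Over their shared coding length Trav16d-dv11 differed from Trav16n at 12 of 356 aligned positions and from Trav16 at 12 of 353. Gaps in an alignment are counted as differing positions, here and in the identities below. The next set has no capitals because its members do not differ. It gives the last 60 coding bases of the Trav12-3 copies, at chr14:52930223-52930282 and chr14:53241185-53241244 on the plus strand.
Trav12d-3: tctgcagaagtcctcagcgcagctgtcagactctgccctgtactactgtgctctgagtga
Trav12n-3: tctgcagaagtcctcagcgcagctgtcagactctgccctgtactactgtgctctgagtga

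The third set gives 60 bases of the Trav7-2 copies, at chr14:52684196-52684255 and chr14:53390867-53390926 on the plus strand.
Trav7d-2: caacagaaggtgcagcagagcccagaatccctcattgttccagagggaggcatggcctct
Trav7-2: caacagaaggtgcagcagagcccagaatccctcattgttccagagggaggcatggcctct

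The last set gives the first 120 coding bases of the gamma constant genes Trgc1 (chr13:19214103-19214222, plus strand) and Trgc2 (chr13:19307432-19307551, minus strand).
Trgc1: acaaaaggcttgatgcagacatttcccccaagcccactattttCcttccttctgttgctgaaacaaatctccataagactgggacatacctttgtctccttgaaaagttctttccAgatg
Trgc2: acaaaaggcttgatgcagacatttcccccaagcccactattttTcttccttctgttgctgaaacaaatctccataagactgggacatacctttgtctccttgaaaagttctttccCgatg

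These constant genes were 94.6% identical over 515 aligned positions, whereas Trgc4 was 70.8% identical to Trgc1 and 69.8% to Trgc2. Among the alpha V segments, 28 formed 14 pairs with identical coding sequence over the length both cover, and 61 had a copy at least 97% identical. Of the 14 identical pairs, 8 had the same CPM in every library for both members, as when reads that fit both are divided equally. The other 6 did not, so values of single members of such pairs can depend on how the authors' software shared the reads. Exon bases outside the coding sequence were not compared, and could also set such members apart. Sums over copies are therefore given beside single values below. Summed by subgroup, 44 of 54 alpha V values were whole reads within 0.02 reads, against 169 of 282 single-segment values.

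Trac is the constant part of every alpha chain (chromosome 14, 54220521 to 54224206, plus strand). Per kb of annotated exon it was at 206 CPM in aged fumarate, 179 CPM in aged vehicle and 260 CPM in young, where the highest alpha V segment had 8.38, 7.63 and 8.19 CPM. Per gene, Trac was at 192 CPM in aged fumarate, 167 CPM in aged vehicle and 243 CPM in young. The 3 counting intervals, 185 to 200 CPM, 161 to 174 CPM and 239 to 248 CPM, did not overlap, and both aged libraries lay below the young one. The log2 ratio was 0.20 for aged fumarate over aged vehicle, −0.54 for aged vehicle over young and −0.34 for aged fumarate over young. None reached 2-fold. When libraries were scaled to the summed T cell markers, a change that moved all genes by −0.28, 0.12 and −0.16 in these comparisons, the ratios became −0.084, −0.42 and −0.50, so the direction between the aged libraries turned. Of the summed markers Thy1 had the highest level in each library, at 1453 CPM in aged fumarate, 988 CPM in aged vehicle and 752 CPM in young. It also had the highest log2 ratio among them for aged fumarate over aged vehicle, 0.56. Scaling without Thy1 was not run, so whether the turn rests on that gene was not tested. Fewer T cells in a culture and less receptor RNA per cell cannot be told apart in such bulk RNA.

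The alpha V segments followed Trac. Their summed level was 65.4 CPM in aged fumarate, 53.9 CPM in aged vehicle and 85.9 CPM in young, resting on 906, 930 and 3519 estimated reads. The plain ratio of these sums was 1.21 (1.11 to 1.33) for aged fumarate over aged vehicle, 0.627 (0.583 to 0.675) for aged vehicle over young and 0.762 (0.707 to 0.820) for aged fumarate over young. The first of these also depended on scaling, since the log2 ratio of 0.27 became −0.0045 with scaling to the T cell markers. For every 100 Trac reads there were 34.0 alpha V reads in aged fumarate (31.5 to 36.7), 32.2 in aged vehicle (29.8 to 34.6) and 35.3 in young (33.9 to 36.7), intervals that overlap between all 3 libraries.

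Trac was also set against other chains of the receptor complex. Per 100 reads of the beta constant genes Trbc1 and Trbc2 there were 39.2 Trac reads in aged fumarate (37.5 to 41.0), 40.1 in aged vehicle (38.4 to 41.9) and 48.8 in young (47.7 to 50.02). Per 100 reads of the CD3 genes Cd3d, Cd3e, Cd3g and Cd247 there were 35.5 Trac reads in aged fumarate (33.9 to 37.1), 36.5 in aged vehicle (35.0 to 38.1) and 41.9 in young (40.9 to 42.9). In both ratios the aged libraries overlapped each other and the young library lay above them. The second rested on Cd247 for aged vehicle. Without that gene there were 50.5 Trac reads per 100 in aged fumarate (48.2 to 52.9), 54.8 in aged vehicle (52.4 to 57.4) and 56.5 in young (55.1 to 57.9), so that aged vehicle and young overlapped. These ratios do not use the library total.

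The delta constant gene Trdc (chromosome 14, 54142851 to 54148868, plus strand) was at 5.11 CPM in aged fumarate, 4.34 CPM in aged vehicle and 6.07 CPM in young. Its plain ratio was 1.18 for aged fumarate over aged vehicle (0.841 to 1.65), 0.715 for aged vehicle over young (0.545 to 0.929) and 0.841 for aged fumarate over young (0.639 to 1.10). Per 100 Trac reads there were 2.66, 2.59 and 2.496 Trdc reads in aged fumarate, aged vehicle and young, so Trdc stood in nearly one proportion to Trac throughout. In contrast, the summed gamma constant genes came to 6.30 reads per 100 Trac reads in aged fumarate (5.36 to 7.37), 7.68 in aged vehicle (6.67 to 8.80) and 3.54 in young (3.17 to 3.94). Both aged libraries lay above the young one on that measure, and overlapped each other. Trac, its denominator, was itself lower in both aged libraries. By level the summed gamma constant genes were at 12.1 CPM in aged fumarate, 12.9 CPM in aged vehicle and 8.61 CPM in young. The plain ratio was 1.49 for aged vehicle over young (1.26 to 1.77) and 1.41 for aged fumarate over young (1.16 to 1.70).

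**Figure D1:**
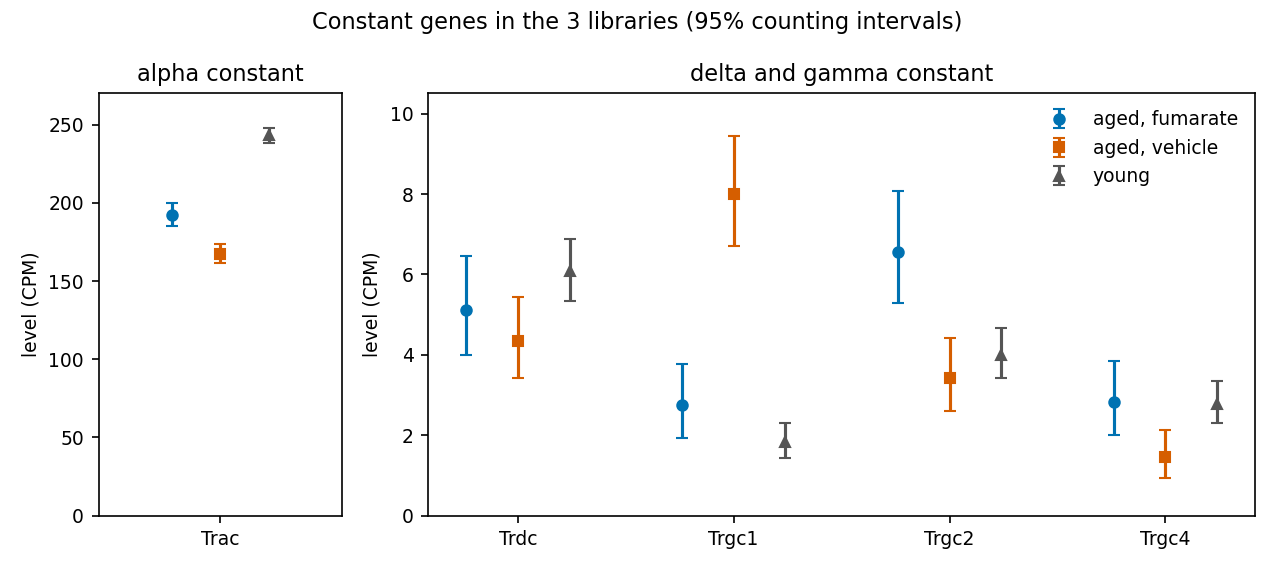
Level of each constant gene in CPM (linear axes, with a separate scale for Trac) in the aged fumarate, aged vehicle and young libraries, 1 library each, with 95% Clopper-Pearson counting intervals as bars. Trac and Trdc are highest in young, while Trgc1 stands at 7.99 CPM in aged vehicle against 2.74 CPM in aged fumarate and 1.83 CPM in young.

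The gamma constant genes did not move together. Trgc1, the constant gene of the cassette that holds Trgv4 (chromosome 13, 19214103 to 19217024, plus strand), was at 2.74 CPM in aged fumarate, 7.99 CPM in aged vehicle and 1.83 CPM in young, from 38, 138 and 74.9 estimated reads. The aged vehicle library was thus the high one, and the other libraries had overlapping intervals. Its log2 ratio was −1.26 for aged fumarate over aged vehicle and 1.67 for aged vehicle over young, both past the 2-fold limit, and 0.40 for aged fumarate over young. The plain CPM ratios were 0.343 (0.233 to 0.495), 4.37 (3.27 to 5.87) and 1.501 (0.987 to 2.24). With 5 CPM added in place of 1 CPM, the log2 ratios were −0.75 for aged fumarate over aged vehicle and 0.93 for aged vehicle over young, both short of the 2-fold limit.

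Trgc2, which serves the cassette of Trgv2 (chromosome 13, 19304649 to 19307551, minus strand), was at 6.57 CPM in aged fumarate, 3.42 CPM in aged vehicle and 4.001 CPM in young. Here aged fumarate was the high library, with a plain ratio of 1.92 over aged vehicle (1.37 to 2.71) and of 1.64 over young (1.26 to 2.13), and aged vehicle over young was 0.854 (0.623 to 1.16). Trgc4, the constant gene of the Trgv1 cassette (chromosome 13, 19344558 to 19352756, plus strand), was at 2.82 CPM in aged fumarate, 1.45 CPM in aged vehicle and 2.78 CPM in young. Aged vehicle was the low library, at 0.521 of young (0.323 to 0.808), and aged fumarate stood at 1.94 times aged vehicle (1.15 to 3.35). Neither Trgc2 nor Trgc4 reached 2-fold on log2 of CPM + 1 in any comparison.

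The 3 gamma constant genes have similar annotated exon lengths, 924, 914 and 985 bases for Trgc1, Trgc2 and Trgc4. As shares of their reads, Trgc1 took 22.6% in aged fumarate (16.5 to 29.7), 62.2% in aged vehicle (55.4 to 68.6) and 21.2% in young (17.1 to 25.9). Trgc2 took 54.2%, 26.6% and 46.5%, and Trgc4 took 23.2%, 11.3% and 32.3%, in aged fumarate, aged vehicle and young. Aged fumarate and young therefore had Trgc2 as the leading gamma constant gene and aged vehicle had Trgc1. Per 100 Trgc2 reads there were 41.8 Trgc1 reads in aged fumarate (27.8 to 61.6), 234 in aged vehicle (171 to 323) and 45.7 in young (34.3 to 60.5).

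Gamma V segments were read less deeply, and they did not show the Trgc1 difference. Trgv2 (chromosome 13, 19336573 to 19337167, minus strand) gave 45, 24 and 55 reads in aged fumarate, aged vehicle and young, or 3.25, 1.39 and 1.34 CPM. It was higher in aged fumarate, by a plain ratio of 2.34 over aged vehicle (1.39 to 4.01) and 2.42 over young (1.60 to 3.66), the same library in which Trgc2 was highest. Trgv4, the listed V segment of the Trgc1 cassette, gave 6 reads in aged fumarate, 1 in aged vehicle and 9 in young, that is 0.433, 0.0579 and 0.220 CPM. It was thus lowest, with an interval of 0.001 to 0.323 CPM, in the library where Trgc1 was highest, although its intervals overlapped in all 3 libraries. Trgv1 gave 0, 2 and 9 reads in aged fumarate, aged vehicle and young. The other gamma V segments of the annotation, 4 of 7, are not analysed here, so which V segments the Trgc1 reads of aged vehicle carried cannot be read from these values.

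Delta V segments had few reads, 14.2, 16 and 43.1 reads in all in aged fumarate, aged vehicle and young, or 1.03, 0.927 and 1.05 CPM. Trdv1 gave 8, 3 and 22 reads, Trdv2-2 gave 0, 3 and 7 reads, and Trdv4 gave 4, 6 and 4 reads in aged fumarate, aged vehicle and young. Trdv4 was at 0.289, 0.348 and 0.0976 CPM, but no delta V ratio had an interval that left out 1 in any comparison. Trdv5, which lies downstream of Trdc on the opposite strand and overlaps its end (54148662 to 54149294), gave 2.22, 4 and 10.1 reads. Whether counting used strand is not given, so its reads and those of Trdc cannot be told apart where they overlap. Differences among delta V segments were not detectable at this depth.

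**Figure D2:**
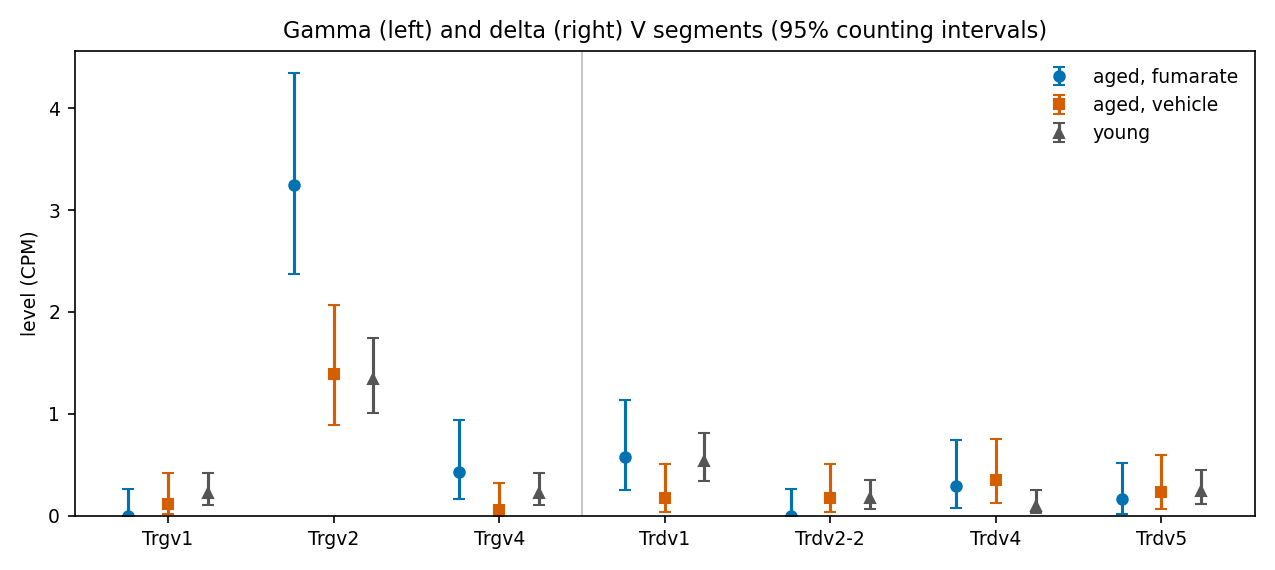
Level in CPM of the 3 gamma V and 4 delta V segments in each library, with 95% Clopper-Pearson counting intervals as bars. Trgv2 at 3.25 CPM in aged fumarate is the one value whose interval lies above those of both other libraries.

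Over all members, 1 of 106 (0.943%) was higher and 1 lower by 2-fold or more in aged fumarate than in aged vehicle, where 0.258% of all genes were higher and 5.87% lower. For aged vehicle over young, 1 member was higher (0.943%) and 2 were lower (1.89%), against 8.96% and 1.71% of all genes. For aged fumarate over young, 1 was higher and 1 lower, against 3.99% and 1.95% of all genes. Apart from the single higher member in fumarate over vehicle, these shares were near or under the background. The members concerned were Trgc1 as above, Trav16d-dv11 (higher in aged fumarate in both of its comparisons), Trav7d-2 (lower in both aged libraries than in young) and Trav3d-3 (lower in aged vehicle than in young). Below that limit the members leaned one way: 81 of 106 (76.4%) had a log2 ratio under 0 for aged vehicle over young and 70 (66.0%) for aged fumarate over young, against 45.3% and 49.2% of all genes. Between aged fumarate and aged vehicle 47 of 106 (44.3%) were under 0, against 55.5% of all genes. No listed gene had fewer than 10 estimated reads over the 3 libraries. A segment with few reads most easily reached that through young, the deepest library, which favours values below young. The part of this in the counts against young, and in the medians below, was not tested. Over the 94 alpha V segments the median log2 ratio was 0.05 for aged fumarate over aged vehicle, −0.27 for aged vehicle over young and −0.18 for aged fumarate over young, beside −0.04, 0.04 and 0.003 for all genes.

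Shares of alpha V reads remove the overall level of the locus. They are shares of reads, not per kb, over segments with 328 to 595 annotated exon bases (median 381). All 18 alpha V subgroups (segments of one number, with copies summed) had at least 3 reads in every library. Trav6, with 13 listed segments, took 14.5% in aged fumarate, 14.4% in aged vehicle and 13.2% in young, and Trav9 took 7.18%, 7.85% and 7.74%. These are examples of subgroups whose counting intervals overlapped in all 3 libraries. Trav14 and Trav7 took a smaller share in both aged libraries than in young. Trav14 took 10.7% in aged fumarate (97 reads), 9.78% in aged vehicle (91 reads) and 15.1% in young (531 reads). Its ratio of shares was 0.648 for aged vehicle over young (0.513 to 0.812) and 0.710 for aged fumarate over young (0.566 to 0.883). Trav7 took 11.4%, 11.5% and 14.8% in aged fumarate, aged vehicle and young, with ratios of 0.777 (0.625 to 0.959) and 0.768 (0.615 to 0.953) for aged vehicle and aged fumarate over young.

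Trav12 took the larger share in aged vehicle, at 13.3% against 11.5% in aged fumarate and 9.85% in young, and its ratio of aged vehicle over young was 1.35 (1.09 to 1.66). Trav13 and Trav16 took larger shares in aged fumarate. Trav13 was at 9.61% in aged fumarate (87.1 reads), 5.61% in aged vehicle (52.2 reads) and 6.93% in young (244 reads), a ratio of 1.71 for fumarate over vehicle (1.20 to 2.47). Trav16 was at 8.61%, 5.48% and 5.17%, with ratios of 1.57 over aged vehicle (1.09 to 2.28) and 1.66 over young (1.26 to 2.18). The single-segment subgroup Trav19 was at 1.10%, 2.04% and 0.824%, and Trav21-dv12 at 0.883%, 1.40% and 0.540%, in aged fumarate, aged vehicle and young. Their ratios of aged vehicle over young were 2.48 (1.31 to 4.57) and 2.59 (1.18 to 5.53), on 19 and 13 reads in aged vehicle. In all, the interval left out 1 for 2 of 18 subgroups in fumarate over vehicle, for 5 in vehicle over young and for 4 in fumarate over young, with no adjustment for their number. No subgroup with 50 reads or more over a pair of libraries reached 2-fold.

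**Figure D3:**
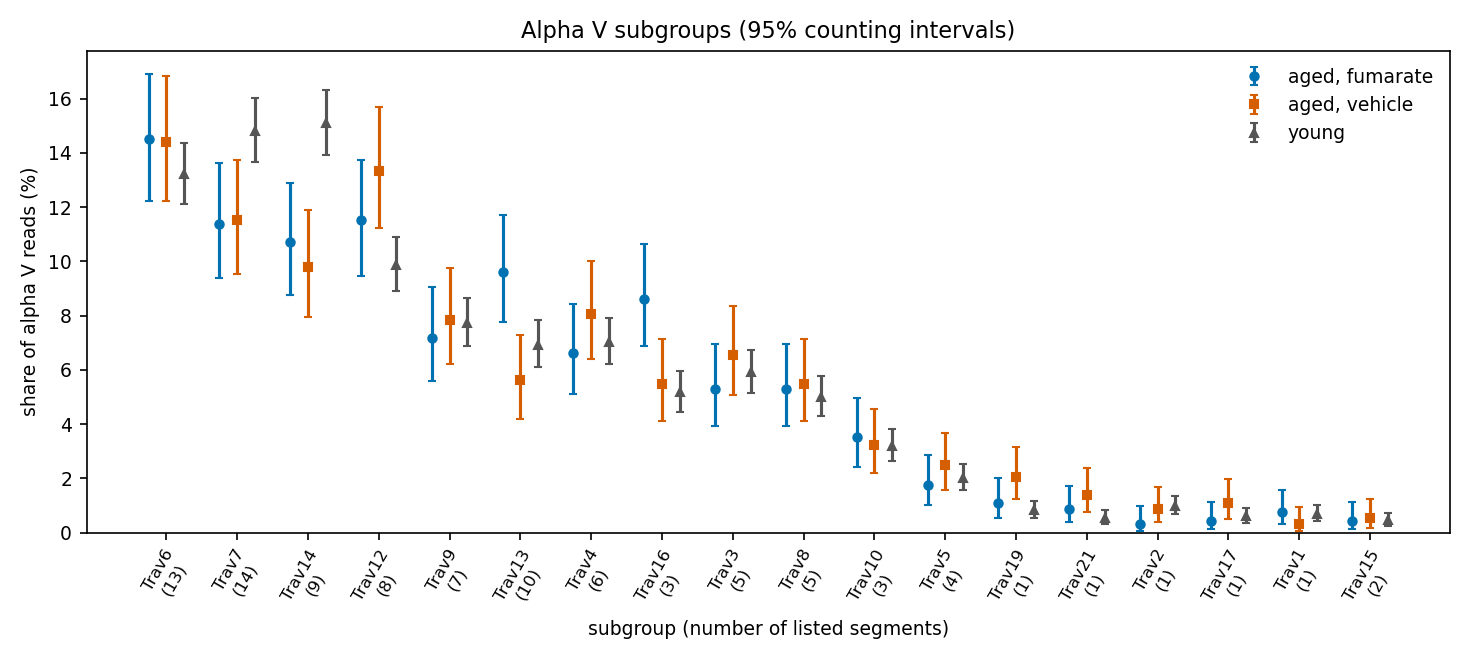
Share of alpha V reads (%) taken by each of the 18 subgroups in each library, with the number of listed segments in parentheses and 95% Clopper-Pearson counting intervals as bars. Trav14 and Trav7 are lower in both aged libraries than in young, and Trav13 and Trav16 are higher in aged fumarate than in aged vehicle.

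Among single segments, Trav16d-dv11 (chromosome 14, 53047287 to 53047821, plus strand) had the largest difference in share between the aged libraries. It was at 2.96 CPM in aged fumarate, 0.0607 CPM in aged vehicle and 0.409 CPM in young, from 41.0, 1.05 and 16.8 estimated reads, and its share of alpha V reads was 4.52%, 0.113% and 0.476%. Only aged fumarate was high. The ratio of shares was 9.50 for aged fumarate over young (5.21 to 17.6), and for aged fumarate over aged vehicle the interval ran from 7.14 upward on a single read in aged vehicle. The copies shown above did not move with it. Trav16n was at 2.501%, 2.47% and 2.28%, and Trav16 at 1.59%, 2.90% and 2.42%, in aged fumarate, aged vehicle and young. Trav16d-dv11 was therefore the highest single segment of the aged fumarate library, below the identical pair Trav6d-6 and Trav6-6 at 4.64%. As reads were assigned, the larger share of the Trav16 subgroup there lay in this copy. Trav16n and Trav16 had 22.7 and 14.4 estimated reads there, not whole numbers, while the subgroup summed to 78. Some reads may thus have been divided among these copies. Summed, the subgroup's ratio over aged vehicle was 1.57 (1.09 to 2.28).

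Trav12n-3 (chromosome 14, 53240745 to 53241244, plus strand) led the aged vehicle library, with 2.25% in aged fumarate, 5.00% in aged vehicle and 1.25% in young. Its identical copy Trav12d-3 was at 1.35%, 0.214% and 0.831%. Summed, the pair took 3.60% in aged fumarate, 5.22% in aged vehicle and 2.08% in young, on 32.6, 48.5 and 73.1 reads. The summed ratio was 2.51 for aged vehicle over young (1.73 to 3.70) and 1.73 for aged fumarate over young (1.13 to 2.68), so the pair was higher in both aged libraries whichever copy the reads came from. Between the aged libraries the summed ratio was 0.691 (0.431 to 1.10).

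The identical copies Trav7d-2 and Trav7-2 show the opposite case. Taken singly, Trav7d-2 was at 0.819%, 0.997% and 3.21%, and Trav7-2 at 0.947%, 1.15% and 0.139%, in aged fumarate, aged vehicle and young, ratios to young of opposite direction. Summed they took 1.77%, 2.15% and 3.35%, with a ratio of 0.527 for aged fumarate over young (0.292 to 0.892) and of 0.641 for aged vehicle over young (0.378 to 1.04). Trav3d-3 likewise was at 1.55%, 0.194% and 1.59%, but summed with its identical copy Trav3n-3 the pair took 3.09%, 2.80% and 3.17%, with every interval including 1. By level, neither pair reached 2-fold. The summed log2 ratio for Trav7d-2 and Trav7-2 was −0.85 for aged vehicle over young and −0.85 for aged fumarate over young, and for Trav3d-3 and Trav3n-3 it was −0.57 for aged vehicle over young. None of the members counted as 2-fold lower than young thus stayed past that limit once summed with its identical copy.

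**Figure D4:**
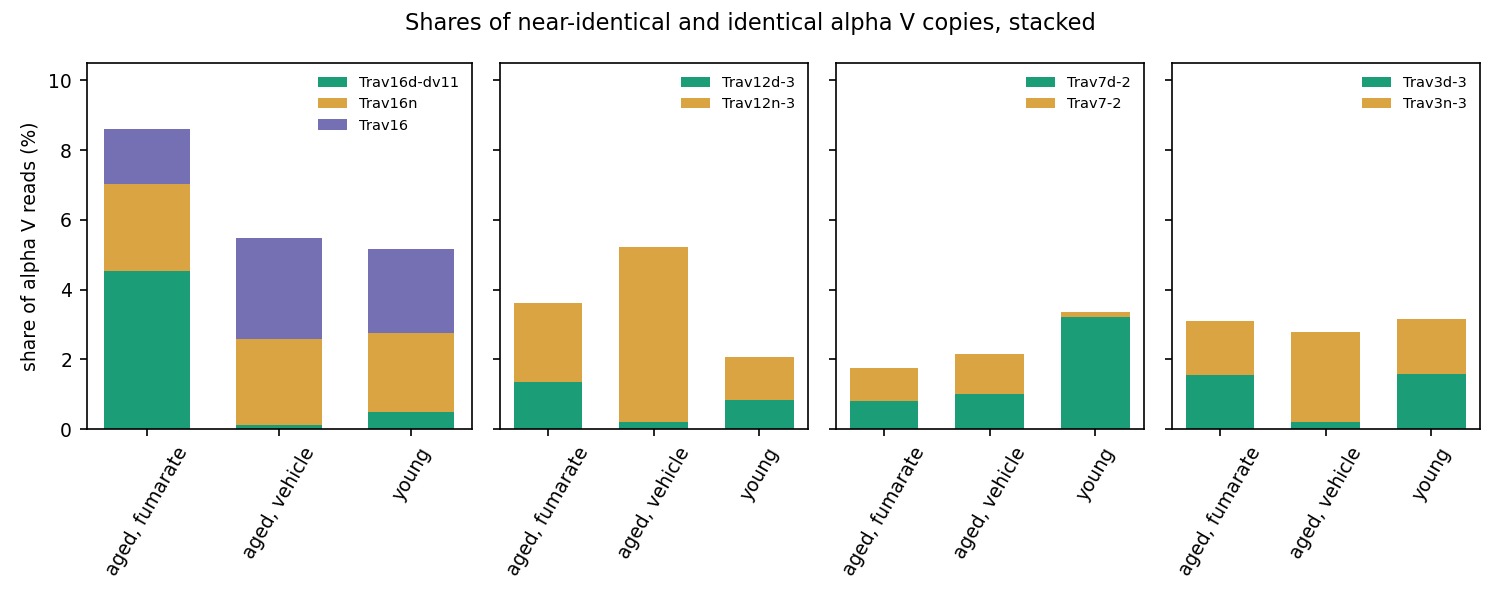
Stacked shares of alpha V reads (%) for 4 sets of copies in each library, without error bars. Trav16d-dv11 makes up most of the difference in the Trav16 set, the Trav12-3 pair is highest in aged vehicle, and the Trav7-2 and Trav3-3 pairs change in how reads divide between identical members.

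With at least 50 reads over the pair of libraries, 1 alpha V segment could be compared for aged fumarate over aged vehicle, 37 for aged vehicle over young and 39 for aged fumarate over young. By level, 0 were at least 2-fold higher and 0 lower for fumarate over vehicle, 0 higher and 2 lower for vehicle over young, and 1 higher and 1 lower for fumarate over young. Among all genes with that minimum, 0.26% were higher and 6.84% lower, 9.69% and 2.16%, and 4.23% and 2.53%, in the same order of comparisons. By share, 0 were at least 2-fold higher and 1 lower for fumarate over vehicle, 1 higher and 6 lower for vehicle over young, and 2 higher and 4 lower for fumarate over young. Scaled to alpha V reads in the same way, 0.276% of all genes were higher and 10.7% lower for fumarate over vehicle, 27.4% and 1.20% for vehicle over young, and 10.2% and 2.32% for fumarate over young. The 1 lower segment of the first comparison was Trav12n-3, whose pair did not pass. The minimum is summed over 2 libraries of unlike depth, so against young a segment often passes it through its young reads. That favours segments lower than young. With no minimum, 14 were higher and 14 lower by share for vehicle over young. For fumarate over young, 8 were then higher and 18 lower.

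Among segments with at least 50 reads over the pair, those at least 2-fold lower than young by share belonged mainly to Trav7 and Trav14. Trav14d-3-dv8 was at 1.21% in aged fumarate, 0.753% in aged vehicle and 2.05% in young, with a ratio of 0.368 for aged vehicle over young (0.143 to 0.798). Trav14-1 gave 3, 9 and 50 reads, a ratio of 0.233 for aged fumarate over young (0.0465 to 0.721). Trav14n-2 was at 0.442%, 0.645% and 1.66%, and summed with its identical copy Trav14d-2 the pair took 0.883%, 1.29% and 2.25%, with a ratio of 0.392 for aged fumarate over young (0.164 to 0.814). Trav7-3 was at 0.828%, 0.731% and 1.72%, a ratio of 0.426 for aged vehicle over young (0.170 to 0.967). Summed with its near-identical copy Trav7d-3, it took 1.66%, 1.83% and 2.76%, and the ratio was 0.663 (0.371 to 1.12), short of 2-fold. Trav13-1 gave 21 reads in aged fumarate, 8 in aged vehicle and 63 in young, or 2.32%, 0.860% and 1.79%. Trav4-3, which fell short of the 2-fold limit, was at 0.993%, 1.29% and 1.93%.

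Trav6n-6 was one of the higher segments in aged fumarate, with 3.31% against 1.29% in aged vehicle and 1.28% in young, and ratios of 2.57 over aged vehicle (1.28 to 5.50) and 2.59 over young (1.58 to 4.20). The identical pair Trav6d-6 and Trav6-6 summed to 4.64%, 3.23% and 3.07% in aged fumarate, aged vehicle and young, with a ratio of 1.51 for aged fumarate over young (1.03 to 2.18). Summed, the identical pair Trav14d-1 and Trav14n-1 had the highest mean share of any segment or identical pair. It took 3.09% in aged fumarate, 3.44% in aged vehicle and 4.74% in young. Its ratio was 0.653 for aged fumarate over young (0.420 to 0.976) and 0.726 for aged vehicle over young (0.480 to 1.06). Counted singly, the other segments with the highest mean share had ratios whose intervals included 1. Trav7-4 was at 2.94%, 2.45% and 3.26%, Trav4-4-dv10 at 2.67%, 2.74% and 2.68%, Trav12-2 at 2.76%, 2.15% and 2.73%, and Trav3-3 at 2.21%, 2.69% and 2.23%, in aged fumarate, aged vehicle and young. Trav6n-7 was at 2.08%, 2.46% and 2.84%. Trav8n-2, Trav8-1 and Trav9n-4 had share ratios of 1.70, 1.55 and 1.35 for aged vehicle over young, with intervals that included 1.

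Trav1, the segment that mouse MAIT cells use for their invariant alpha chain, gave 7 reads in aged fumarate, 3 in aged vehicle and 24 in young. Its shares of 0.773%, 0.323% and 0.682% had intervals that overlapped in all 3 libraries. The segments of the invariant NKT cell receptor are not analysed here.

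Read as units of identical coding sequence, the 94 segments gave 80 units. The interval of the share ratio left out 1 for 9 of them in fumarate over vehicle (5 higher, 4 lower), for 7 in vehicle over young (4 higher, 3 lower) and for 13 in fumarate over young (7 higher, 6 lower), again with no adjustment for the number of ratios. In the other units, 71, 73 and 67 of 80, no difference beyond counting error was found. The 71 include Trav9d-4, which had too few reads in the aged libraries for an interval.

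By position along the locus, the d copies (26 segments) took 25.4% of alpha V reads in aged fumarate (22.6 to 28.4), 17.5% in aged vehicle (15.1 to 20.1) and 22.6% in young (21.2 to 24.0). The n copies (25 segments) took 28.4%, 31.4% and 26.0%. The 36 unsuffixed segments nearest the J segments took 44.3%, 47.6% and 48.0%, and the 7 at the far 5′ end took 1.99%, 3.55% and 3.38%. Since d and n copies include identical pairs, the split between them can depend on how reads were shared. The 8 segments named for both alpha and delta use took 11.0% in aged fumarate (9.07 to 13.3), 8.34% in aged vehicle (6.69 to 10.4) and 9.17% in young (8.24 to 10.2). Both this class and the d copies hold Trav16d-dv11. Without it the dual segments took 6.48%, 8.23% and 8.69%, so aged fumarate became the lowest, and the d copies took 20.9%, 17.4% and 22.1%, in aged fumarate, aged vehicle and young.

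**Figure D5:**
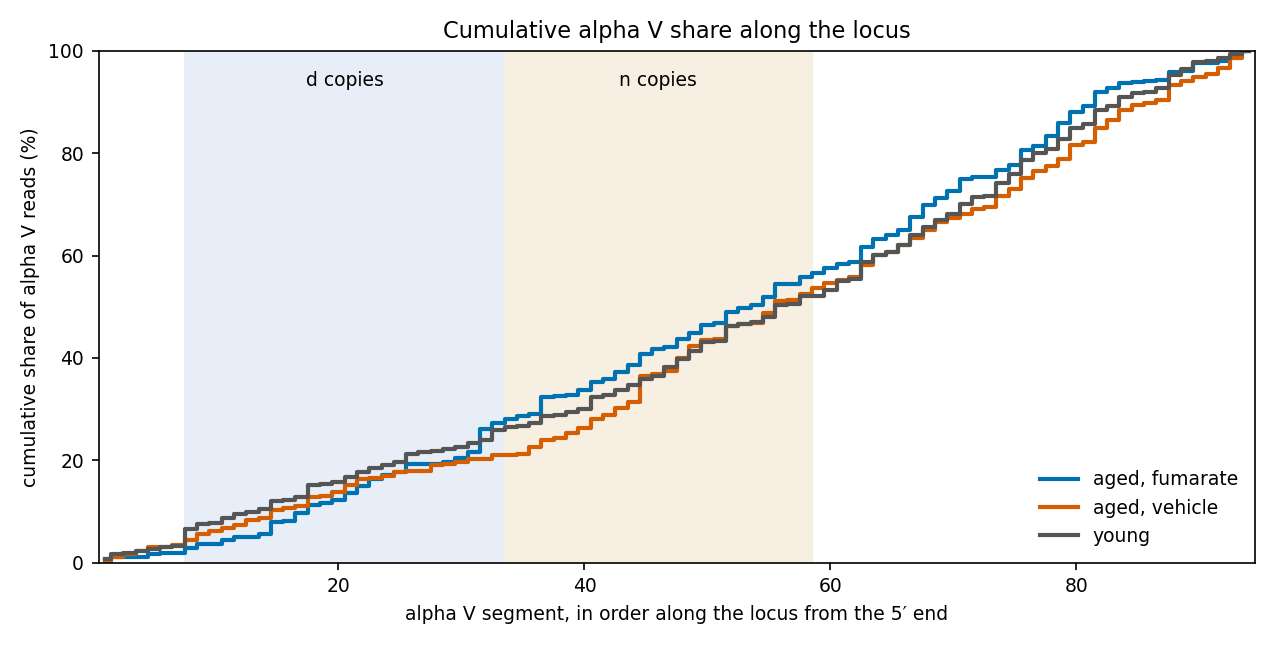
Cumulative share of alpha V reads (%) over the 94 alpha V segments in their order along the locus, 1 line per library, with the d and n copies shaded. The lines stay close to each other, and the aged vehicle line lies below the others at the end of the d copies, which took 17.5% there.

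Alpha V use was broad in every library. Segments with at least 3 reads numbered 77 of 94 in aged fumarate, 82 in aged vehicle and 94 in young. The young count was 82 when its reads were thinned to the number of the aged fumarate library. Every listed segment had at least 10 reads over the 3 libraries, most easily met in young, the deepest, which favours young in this count. The 10 highest segments took 28.5%, 27.8% and 26.6% of alpha V reads in aged fumarate, aged vehicle and young, and no segment exceeded 4.52%, 5.00% and 3.26%. Shannon evenness, which is 1 when all segments are used equally, was 0.930, 0.941 and 0.945. The summed absolute difference in share divided by 2, the percentage of reads that would have to change segment to make 2 libraries equal, was 25.9 points for fumarate and vehicle, 20.95 for vehicle and young and 21.9 for fumarate and young over segments. Over subgroups it was 8.91, 10.4 and 10.4 points. Counting error adds to these values, and does so most where reads are few.

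Other genes of the receptor system were read from lists. Of 5 genes for the CD3 chains and receptor assembly 4 were listed, and none reached 2-fold in any comparison. Their median log2 ratio was 0.26 for aged fumarate over aged vehicle, −0.46 for aged vehicle over young and −0.14 for aged fumarate over young. Cd3e, a signalling chain of the receptor, was at 106 CPM in aged fumarate, 77.1 CPM in aged vehicle and 115 CPM in young, while Cd247, the zeta chain, was at 161, 153 and 151 CPM.

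Of 12 genes for V(D)J recombination and DNA end joining 10 were listed. Only Dntt, which encodes the polymerase that adds untemplated bases at the joints, passed 2-fold, being lower in both aged libraries than in young. It was listed at 0 CPM in aged fumarate, 0.116 CPM in aged vehicle and 2.34 CPM in young, both aged values being under the 3-read limit. Xrcc5, a subunit of the Ku end-binding complex, was at 43.1, 40.9 and 71.1 CPM, below 2-fold. The median of the 10 was 0.08 for fumarate over vehicle, −0.37 for vehicle over young and −0.10 for fumarate over young.

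The list of gamma delta and innate-like T cell genes differed more. Of its 12 genes, 0 were at least 2-fold higher and 4 lower in aged fumarate than in aged vehicle, 9 were higher and 0 lower in aged vehicle than in young, and 7 were higher and 0 lower in aged fumarate than in young. Over all genes 5.87% were lower in the first comparison, 8.96% higher in the second and 3.99% higher in the third. Il17a, the cytokine interleukin 17A, was at 10.3 CPM in aged fumarate, 22.4 CPM in aged vehicle and 0.951 CPM in young. Maf, a transcription factor of interleukin 17 producing gamma delta T cells among other T cells, was at 9.74, 31.5 and 2.12 CPM, and Sox13, which marks a gamma delta lineage, at 0.505, 1.68 and 0.342 CPM. Zbtb16, which encodes the innate-like T cell factor PLZF, was at 0.650, 3.42 and 0.268 CPM. These 4 genes, picked after their values were seen, were highest in aged vehicle, as Trgc1 was. In the same list Blk, a kinase of the Src family, was at 0.577, 0.232 and 0.220 CPM and Klrb1c, the NK1.1 antigen, at 1.01, 0.405 and 0.0732 CPM, both highest in aged fumarate. Cd163l1, a scavenger receptor of gamma delta T cells, was at 3.18, 3.24 and 0.244 CPM, and Il23r, the interleukin 23 receptor, at 3.83, 4.06 and 0.366 CPM, nearly level between the aged libraries. Several of these genes are also made by alpha beta T cells, and their levels stand beside the erythroid, basophil and macrophage markers that were highest in the same aged vehicle library.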

How the data were processed

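Polyadenylated RNA was sequenced from 3 libraries, 1 per group, with groups taken from the titles. STAR and Partek are named as tools and mm10 as the build, per the submitters' processing notes. Their versions, the annotation release and the strand setting are not given there. The deposited values are CPM by their sums (1000000 per column), though the table is named as raw counts. Depth was estimated from the step between low values. Within 0.02 reads, 58.4% to 68.2% of values were whole, so reads could not be recovered as whole numbers and count models were left out. The gene with the fewest estimated reads had 10 over the 3 libraries. The design's form for CPM was used: log2 of CPM + 1, a 2-fold limit, a minimum of 50 reads where stated, and 95% Clopper-Pearson intervals on estimated reads. The deposited Length column, another kind of value, was not used for levels. Sequences came from GENCODE M21 by position. 100 of 106 symbols were the same there, and gamma genes are named Tcrg in it.

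Named segments were all constant genes, all gamma and delta V segments, the 8 alpha V segments with the highest mean share, the 5 highest and 5 lowest share ratios per pair with at least 50 reads, and invariant receptor segments. Copies are described with their partners. Trav19, Trav21-dv12, Trav13-1, the pair Trav14d-1 and Trav14n-1, and the example subgroups and list genes were picked after their values were seen. The members and lists were chosen with earlier results of these data known. Planned J segment results have no value. One list gene is not reported here by name. Alternatives were other added constants, scaling by T cell markers, by median of ratios or by TMM (ratio trim 30%, level trim 5%), read minimums, summed copies and thinning. Scripts ran in Python 3.11.15 with Biopython 1.88, scipy 1.17.1, pandas 2.3.3, matplotlib 3.10.9 and numpy 2.4.6.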

Additional observations from a re-analysis of the deposited data

How the results depend on the processing

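Of 24 level ratios (constant genes and summed V segments, 3 comparisons each), 20 kept their sign under every added constant and scaling tried. The 4 that did not were Trac, Trdc and summed alpha V for aged fumarate over aged vehicle, and Trgc4 for aged fumarate over young. Scaling to the T cell markers gave −0.084, −0.42 and −0.50 for Trac and −0.0045, −0.54 and −0.55 for summed alpha V (fumarate over vehicle, vehicle over young, fumarate over young), by its own construction, since T cell markers differ between libraries. Thy1 was the largest of these markers, and scaling without it was not run. The number of alpha V segments past 2-fold by level was 1 for fumarate over vehicle with no read minimum. With 0.1 CPM added it was 15 for vehicle over young and 9 for fumarate over young, and with 5 CPM it was 0 in both. By share and with no read minimum, 35, 28 and 26 segments passed in the 3 comparisons. For fumarate over vehicle 17 were higher and 18 lower, and for vehicle over young 14 and 14. For fumarate over young 8 were higher and 18 lower. With copies summed by subgroup 0, 0 and 0 passed. With identical coding sequences summed (chosen after seeing the data) 0 passed for fumarate over vehicle, 4 for vehicle over young and 5 for fumarate over young. With subgroups in place of segments, the 10 highest took 90.7%, 88.1% and 90.7% in aged fumarate, aged vehicle and young. A minimum of 200 reads left no segment and gave no value. No paired analysis was possible because each group had 1 library. Depth limits single segments: a median of 16.6 reads over both aged libraries lay behind each alpha V segment.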
